A study of Mus musculus with 18 samples.

Results

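The genes for the proteins of the large ribosomal subunit were taken from a count table of 11243 mouse protein-coding genes as every gene whose symbol starts with Rpl, Rplp0 to Rplp2 included. The rule gave 46 core genes and 4 paralogs, Rpl3l, Rpl7l1, Rpl22l1 and Rpl36al, which are described apart, and 8 further symbols with -ps, a mark of pseudogenes, were left out. Each of the 46 core genes had at least 95 counts in every library, so none of them was lost to a filter on low counts.

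The cells were RAW264.7, a mouse macrophage line. They received the DMSO vehicle (control, labelled Veh, whose duration the labels do not give), LPS at 500 ng/mL for 6 h (labelled 6h_LPS), or the same LPS for 6 h following a 15 min pretreatment with 100 nM torin1 (labelled 6h_LPS_Torin1). The LPS, a bacterial cell wall component that activates macrophages, was that of Salmonella enterica serotype minnesota (strain Re 595), and torin1 inhibits the kinase mTOR. Each of the 3 treatments was carried out in 3 independent experiments, and each of the 9 lysates was sequenced as total mRNA and as polysome mRNA, the mRNA pooled from heavy polysomes, which makes 18 libraries with 3 in each group. Summed counts ran from 27800983 to 47725557 per library.

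The label of the cells was checked against marker genes. Of 9 macrophage markers, 8 were in the table and 1, Mertk, was not. Their summed level ran from 11265 to 21606 CPM (counts scaled to 1000000 per library, with library sizes adjusted to the typical gene) over the 18 libraries, and the most abundant was Lyz2, the lysozyme of myeloid cells, with a mean of 8595 CPM. Of 15 markers of T cells, B cells, fibroblasts, epithelium and endothelium, 1 was in the table, the endothelial Cdh5, and it reached at most 1.45 CPM in any library. Of 4 LPS response genes, 3 were in the table, and Nos2 was not. Their sum ran from 287 to 584 CPM in the control libraries and from 5416 to 12282 CPM in the libraries with LPS, with or without torin1. By group means, Tnf was the most abundant of them in control cells and in polysome mRNA, and Ptgs2, which makes prostaglandin precursors, in total mRNA of the treatments with LPS.

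As background, the large subunit joins amino acids into protein at its peptidyl transferase centre, releases the growing chain through an exit tunnel and recruits the elongation factors with a stalk of acidic proteins. Nearly all mRNAs for ribosomal proteins begin with a cytosine followed by a run of pyrimidines, the terminal oligopyrimidine (TOP) motif, through which the mTOR complex 1 pathway and the RNA-binding protein LARP1 govern their recruitment to ribosomes. A cell can thereby shift the making of ribosomal proteins between translated and stored mRNA without changing how much mRNA it holds, and macrophages activated by LPS make large amounts of new protein.

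Levels between genes were compared in control total mRNA as CPM per kb of the principal transcript. The highest of the 46 were Rpl32, at 1247 ± 218 CPM per kb (SD, n = 3), Rpl8, a protein at the peptidyl transferase centre, at 1213 ± 9.28, and Rpl4, a protein lining the exit tunnel, at 1198 ± 124.8. Their order differed between experiments. The lowest were Rpl29, at 5.22 ± 1.04 CPM per kb, Rpl21, at 13.2 ± 1.32, and Rpl17, another protein of the tunnel exit, at 26.9 ± 2.45. These low counts are uncertain because a read that fits several places may be assigned to none. The annotation of the genome holds 25 near-identical copies of Rpl29, 57 of Rpl21 and 22 of Rpl17. A copy here matches at 95% identity or more over at least 80% of the coding sequence. Across the 46 genes the number of copies ran from 0, for Rpl8 alone, to 57, with a median of 5.5, and 32 genes had 4 or more.

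Together, the 46 mRNAs made up a similar share of total mRNA counts in each treatment, 1.79% ± 0.09 (SD, n = 3) in control cells, 1.67% ± 0.10 in LPS cells and 1.71% ± 0.11 where torin1 came before LPS. In polysome mRNA their share was 2.12%, 2.46% and 2.14% in control experiments 1, 2 and 3, 2.38%, 2.24% and 2.03% with LPS, and 1.63%, 1.87% and 1.37% with LPS and torin1. All 3 polysome libraries with torin1 lay below the 6 other polysome libraries. In bulk RNA of a culture, fewer cells making an mRNA and less of it per cell cannot be told apart.

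The comparison of LPS with control asks how activation changed the amounts of these mRNAs. Relative to the typical gene, most large subunit mRNAs stood slightly higher in LPS cells, in total mRNA with a median log2 change of 0.27 ± 0.12 (mean and SD of the medians of 3 experiments) and in polysome mRNA with 0.35 ± 0.21. The median of all genes was -0.02 in total mRNA. The change was small beside that of the LPS response genes above, and it depended on the scale. Scaled to library totals alone, where the fitted median of all genes was -0.39 in both kinds of mRNA, the core medians were -0.10 and -0.00.

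Rpl24, which joins the subunit late, in the cytoplasm, had the highest change in both kinds of mRNA. In total mRNA it counted 27.6, 37.3 and 22.4 CPM in control experiments 1, 2 and 3 and 44.2, 34.9 and 35.4 CPM with LPS. In polysome mRNA it counted 20.97, 34.5 and 22.1 CPM in control cells and 48.5, 42.3 and 38.6 CPM with LPS. The polysome groups did not overlap, whereas in total mRNA control experiment 2 lay inside the range of the LPS libraries. With scaling to the typical gene, Rpl24 rose by 0.39 ± 0.18 (log2 change and SE) in total mRNA, with an adjusted p of 0.102, and by 0.74 ± 0.20 in polysome mRNA, with an adjusted p of 0.0184. Next in total mRNA came Rpl9, with 0.39 ± 0.14 and an adjusted p of 0.0395, and Rpl23, which contacts the anti-association factor Eif6, with 0.37 ± 0.13 and an adjusted p of 0.0365. Next in polysome mRNA came Rpl7, with 0.67 ± 0.20 and an adjusted p of 0.0267, and Rpl35a, with 0.66 ± 0.22 and an adjusted p of 0.0404. Each of these was higher in 3 of 3 experiments, except Rpl24 in total mRNA, with 2 of 3. At the other end, Rpl21 had a log2 change of 0.07 and Rpl10a, a protein of the L1 stalk, of 0.09 in total mRNA, neither past the test, and Rpl14 rose by 0.18. The lowest in polysome mRNA were Rpl36, with -0.02, Rplp1, with 0.01, and Rplp2, with 0.02, none past the test.

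By edgeR's quasi-likelihood test at a false discovery rate (FDR) of 0.25, the threshold of the study, 36 of the 46 rose and 0 fell in total mRNA, against 32.2% of all genes that rose and 34.3% that fell, but with library totals alone 0 rose and 6 fell, against 62% of all genes that fell. In polysome mRNA 28 rose and 0 fell, against 26.4% and 28.7% of all genes, and with library totals alone 2 rose and 0 fell, against 13.7% of all genes that rose. DESeq2 called 38 and 30 higher and none lower, against 32.9% and 27% of all genes called higher. At an unadjusted p under 0.05 edgeR called 18 and 19 higher and none lower, against 25.3% and 20.4%. The count in polysome mRNA differed when single experiments were left out, with 1 higher without replicate 1, against 16.7% of all genes, 8 higher without replicate 3, against 18.2%, and 33 higher and 3 lower without replicate 2, against 30.6% and 33.9%. The per-experiment medians in polysome mRNA were 0.59, 0.19 and 0.28.

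Translation efficiency is taken here as the change in polysome mRNA less the change in total mRNA of the same lysates. Values per experiment pair the mRNA of a lysate. The main edgeR fit, which gave the values with an SE and its calls, had no term for the lysate. Between LPS and control its core median was 0.11 ± 0.20, with 0.31, -0.08 and 0.10 in experiments 1, 2 and 3, and 9 of 46 genes were higher in all 3 experiments, against 11.4% of all genes. The core median was -0.01 without replicate 1 and 0.20 without replicate 2. The ends of the range were Rpl36 at -0.32 ± 0.83, Rplp1 at -0.29 ± 0.59 and Rplp2 at -0.27 ± 0.54, and Rpl37a at 0.35 ± 0.27, Rpl24 at 0.35 ± 0.28 and Rpl7 at 0.33 ± 0.27. No core gene was called, 0 of 46 by edgeR, by DESeq2, with lysates as a block and in the analysis of partial variance, a regression of polysome on total mRNA, and 0 had an unadjusted p under 0.05. Of all genes, 0%, 0.00889%, 0% and 0.0712% were called in either direction, in the same order. At an unadjusted p under 0.05, 24 of all 11243 genes were higher and 20 lower.

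The comparison of LPS with torin1 against LPS alone asks how inhibiting mTOR changed the mRNAs of activated cells. The large subunit mRNAs were lower in polysomes with torin1 by a median log2 change of -0.62 ± 0.15, with -0.68, -0.45 and -0.73 in experiments 1, 2 and 3, while the median of all genes was -0.00. Of the 46, 44 were lower in all 3 experiments, against 35.6% of all genes. In total mRNA the median was -0.07 ± 0.06, and -0.00 with library totals alone, where the fitted median of all genes was 0.08.

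Rpl26, at the rim of the exit tunnel, shows the pattern. Total mRNA held 273, 174 and 182 CPM of it with LPS in experiments 1, 2 and 3 and 182, 217 and 173 CPM with LPS and torin1, next to 157, 213 and 150.0 CPM in control cells. Polysome mRNA held 478, 333 and 350.4 CPM with LPS, 226, 216 and 183 CPM with torin1 and 219, 333 and 221 CPM in control cells. Every torin1 polysome library lay below every LPS polysome library, whereas the total libraries overlapped. The polysome change was -0.87 ± 0.21 with an adjusted p of 0.0215, lower in 3 of 3 experiments.

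Rpl37a followed the same course, with 692, 597 and 528 CPM in LPS polysomes and 335, 376 and 250.5 CPM with torin1, against 328, 283 and 253 and 272, 287 and 219.8 CPM in total mRNA. Its polysome groups were apart and its total groups overlapped, and it had the lowest called change, -0.89 ± 0.23, lower in 3 of 3 experiments, with an adjusted p of 0.0282. Rpl32 had 1296, 1045 and 1114 CPM in LPS polysomes and 783, 696 and 525 CPM with torin1, and Rpl37 had 706, 608 and 492 and 327, 409.7 and 245 CPM. Neither overlapped between these groups. Rpl29, at 10.2, 9.27 and 6.42 CPM in LPS polysomes and 5.29, 5.21 and 3.41 CPM with torin1, fell by 0.87 ± 0.24 with an adjusted p of 0.0385, lower in 3 of 3 experiments, at the lowest level per kb of the 46 core genes and with the uncertainty of its many copies.

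For some members the polysome levels with and without torin1 overlapped. Rpl3, a protein that reaches towards the peptidyl transferase centre, counted 596, 526 and 583 CPM in LPS polysomes and 618, 591 and 562 CPM with torin1, and 731, 595 and 646 and 688, 726 and 648 CPM in total mRNA. Rpl5, which binds the 5S rRNA, counted 582, 419 and 529 CPM in LPS polysomes and 533, 393 and 471 CPM with torin1, and 700.1, 519 and 496 and 521, 549 and 479 CPM in total mRNA. Neither gene's libraries separated by treatment in either kind of mRNA. The polysome change of Rpl3 was 0.08 ± 0.14, that of Rpl5 -0.11 ± 0.18 and that of the tunnel protein Rpl4 -0.14 ± 0.15, and none of the 3 passed the test. Rpl4 and Rpl5 were lower with torin1 in 3 of 3 experiments, but neither was called with experiments as a block.

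**Figure D1:**
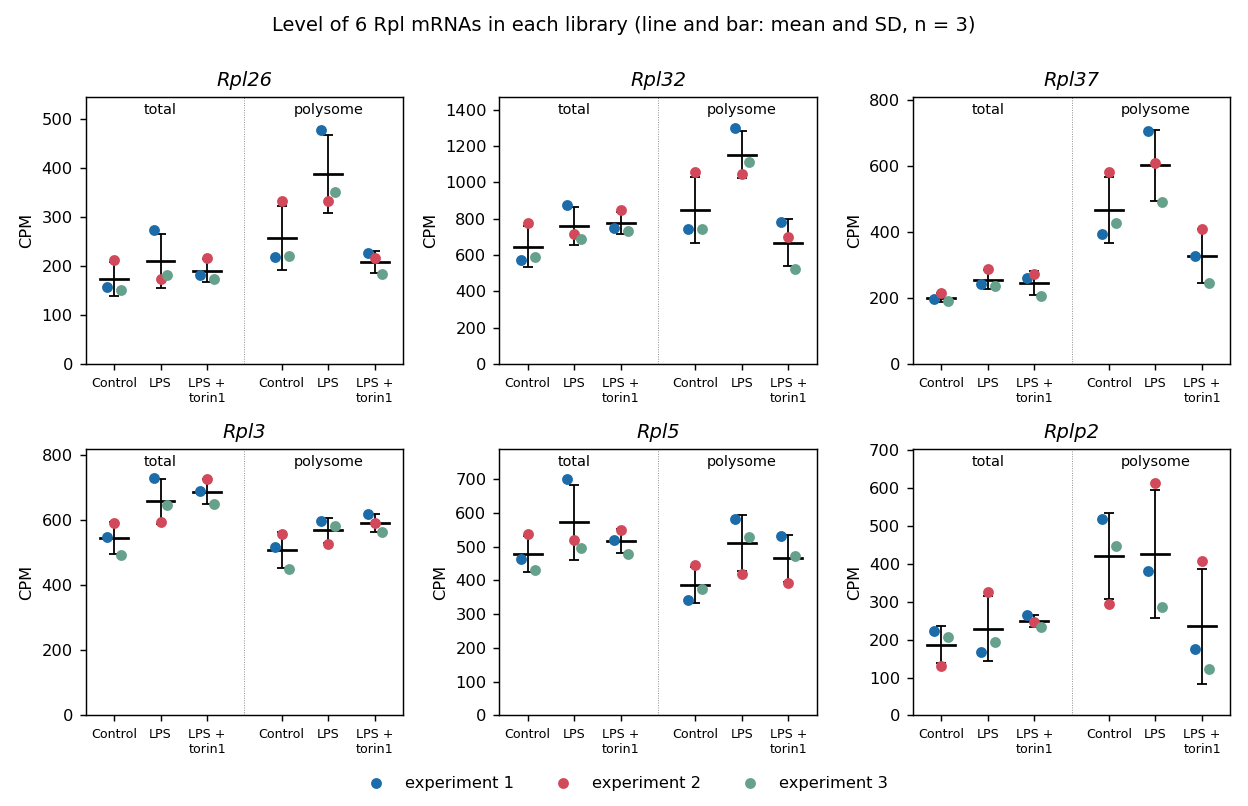
Level in CPM of Rpl26, Rpl32, Rpl37, Rpl3, Rpl5 and Rplp2 in each of the 18 libraries by treatment and kind of mRNA, with points for experiments and bars for the mean and SD of 3. For Rpl26, Rpl32 and Rpl37 the polysome points with torin1 lie below all those with LPS, whereas those of Rpl3, Rpl5 and Rplp2 overlap between the treatments.

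The members are taken here by their place in the subunit. At the stalk, Rpl12, which sits at its base, fell by 0.50 (adjusted p 0.0502) and Rplp2 fell by 0.83 (0.228), while Rplp1, at -0.79, and Rplp0, which anchors both, at -0.26, did not pass. Of the pair that carries the 5S rRNA and can bind the p53 regulator Mdm2, Rpl11 fell by 0.67 (0.0191) and Rpl5 did not pass. Of the proteins that join late in the cytoplasm, Rpl24 fell by 0.51 (0.125), and Rpl10, at -0.31, did not pass. Around the exit tunnel, Rpl17 fell by 0.47 (0.102) and Rpl31 fell by 0.80 (0.0333), and Rpl39, at -0.54, did not pass. Rpl41, with a coding length of 78 bases the shortest, fell by 0.63 (0.249), Rpl38 fell by 0.62 (0.169), and Rpl13a, which also serves in a complex that silences inflammatory mRNAs in monocytes, fell by 0.70 (0.0338). Each gene named here was lower in 3 of 3 experiments apart from Rplp0, which was higher in experiment 2. With experiments as a block Rplp1, at -0.87 (adjusted p 0.133), Rpl39, at -0.53 (0.0816), and Rpl10, at -0.32 (0.100), also fell.

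By edgeR, 37 of the 46 fell in polysome mRNA and 0 rose, against 18.2% of all genes that fell. The 9 others were Rpl36, Rplp1, Rpl39, Rpl10a, Rpl10, Rplp0, Rpl4, Rpl5 and Rpl3. With experiments as a block 42 fell, against 24.3% of all genes, and of these 9 the last 4 were not called. Without the block the count was 12 without replicate 1, against 6.58% of all genes, 8 without replicate 3, against 4.25%, 43 without replicate 2, against 23.4%, and 20 at an FDR of 0.05, against 5.75%. In total mRNA 7 fell and 0 rose, against 26.4% of all genes that fell, and 2 were lower at an unadjusted p under 0.05, against 19.9%. With experiments as a block, 11 fell, against 31.4% of all genes, and 1, Rpl12, rose. Without the block 3 fell when replicate 1 was left out, against 21.8% of all genes, 5 fell and 4 rose when it was replicate 2, against 23.2% and 24.7%, and 1 fell when it was replicate 3, against 16.8%. With library totals alone 2 fell, against 20.8%.

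The 7 that fell in total mRNA were Rpl35a, at -0.33 ± 0.12 with an adjusted p of 0.0586, Rpl21, at -0.33 ± 0.14 with 0.101, both lower in 3 of 3 experiments, and then Rpl7 at -0.29, Rpl30 at -0.24, Rpl11 at -0.22, Rpl7a at -0.21 and Rpl34 at -0.19. Rpl35a stood at 67.1, 57.6 and 56.1 CPM in LPS total mRNA and at 51.7, 47.6 and 44.2 CPM with torin1, without overlap. The highest were Rplp0 at 0.17 ± 0.15, Rplp2 at 0.12 ± 0.25 and Rpl12 at 0.12 ± 0.13, none past the test with all 3 experiments and no block. Without replicate 2 Rplp0, at 0.34, and Rplp2, at 0.48, rose.

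**Figure D2:**
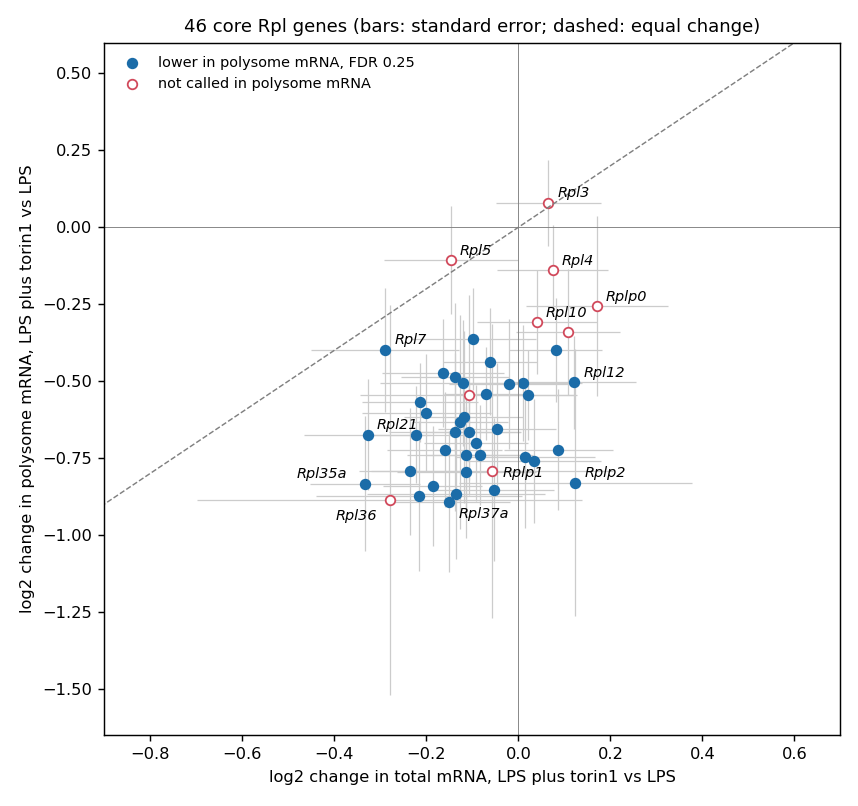
Log2 change of each of the 46 core genes with LPS and torin1 against LPS in total mRNA (x axis) and in polysome mRNA (y axis), with SE bars from the fit, filled where the gene fell in polysome mRNA and with a dashed line for equal change. Most points lie below the line, with polysome changes from -0.89 to 0.08.

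Translation efficiency with torin1 against LPS had a core median of -0.54 ± 0.14, and of -0.59, -0.38 and -0.65 in experiments 1, 2 and 3, where the median of all genes was -0.02. It was lower in all 3 experiments for 38 of 46 genes, against 17.2% of all genes. Rplp2 had the lowest value of the fit, at -0.98 ± 0.54, and Rpl37 at -0.83 ± 0.27 and Rpl32 at -0.82 ± 0.25 were also among the lowest. The values of Rplp2 in experiments 1, 2 and 3 were -1.78, -0.19 and -1.50, those of Rpl37 -1.21, -0.49 and -0.81 and those of Rpl32 -0.50, -0.83 and -1.19. The highest were Rpl5 at 0.02 ± 0.24, Rpl3 at -0.01 ± 0.17 and Rpl7 at -0.13 ± 0.27.

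Single genes passed the test of translation efficiency in some fits alone. By edgeR no core gene was called, 0 of 46, and 0% of all genes in either direction, and DESeq2 also called 0, against 0.0623% of all genes. At an unadjusted p under 0.05, 22 of the 46 were lower, against 0.845% of all genes. With lysates as a block, which compares total and polysome mRNA within each lysate, 10 fell, against 0.222% of all genes, among them Rpl37, Rpl32, Rpl37a, Rpl26, Rpl31 and Rpl12. The fitted values of these 6 without the block ran from -0.83 for Rpl37 to -0.65 for Rpl12. The analysis of partial variance called 1 lower, Rpl26, against 0.107% of all genes. With the block and with the trend of coding GC content removed, an alternative chosen after the data were seen, 23 fell, against 0.454% of all genes, whereas with the trend removed and no block 0 of 46 were called, as were 0% of all genes.

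**Figure D3:**
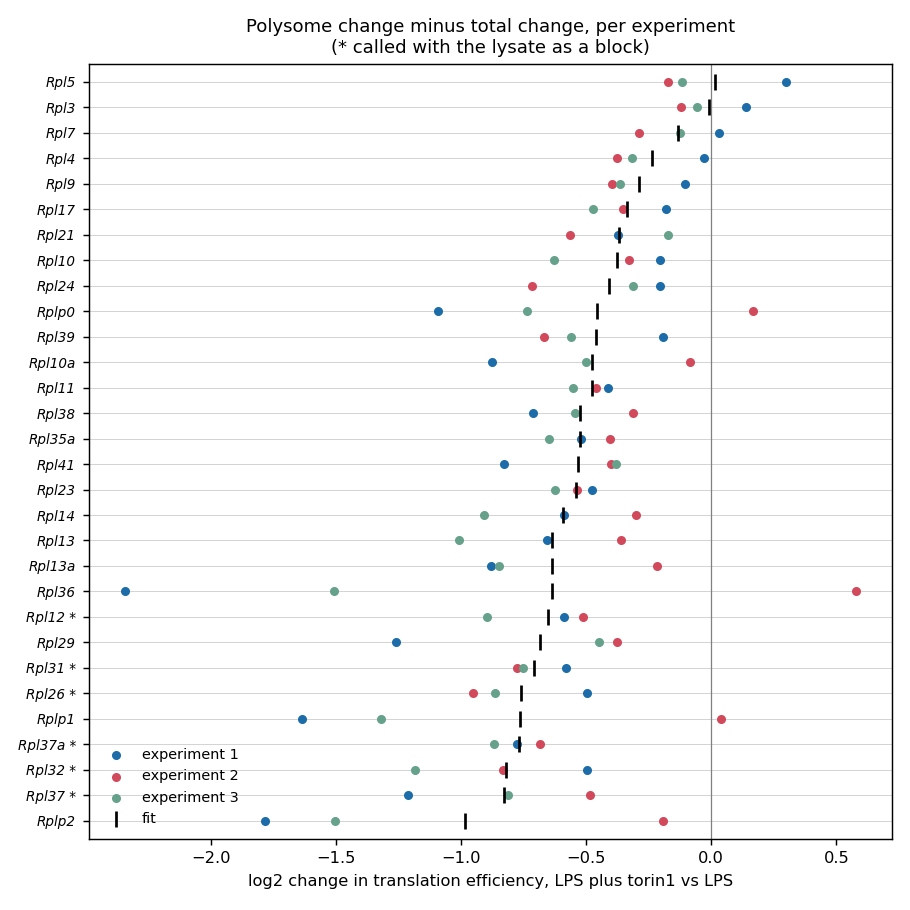
Change in translation efficiency (log2, polysome change less total change) with LPS and torin1 against LPS for core genes that the text names, sorted, with points for the 3 experiments, a tick for the fit and an asterisk for genes that fell with lysates as a block. Fitted values run from -0.98 for Rplp2 to 0.02 for Rpl5, and the points of Rplp2 and Rpl36 lie far apart.

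The values of some members lay far apart between experiments, among them the stalk protein Rplp2 and the small protein Rpl36. Rplp2 counted 519.5, 295 and 447 CPM in control polysomes, 381, 613 and 286 CPM with LPS and 176, 407 and 122 CPM with LPS and torin1, and 223, 130.4 and 208, 167, 326 and 193 and 266, 247 and 235 CPM in total mRNA. Within each experiment its polysome value was lower with torin1 than with LPS, but experiment 2 was low in control cells and high in both LPS treatments. Rpl36 counted 236, 132 and 211 CPM in control polysomes, 165, 317 and 83.8 CPM with LPS and 53.3, 211 and 36.3 CPM with torin1, with experiment 2 in the same position. In Rplp0, Rplp1, Rpl8 and Rpl18 experiment 2 was likewise lowest in control polysomes and highest in polysomes of both LPS treatments. The polysome change of Rpl36 with torin1 was -0.89 ± 0.63 and did not pass the test, but with experiments as a block it fell by 1.04 (adjusted p 0.183), lower in 3 of 3 experiments. Without replicate 2 the change in total mRNA with LPS against control turned to -0.26 for Rplp2, -0.28 for Rplp1 and -0.73 for Rpl36, from 0.29, 0.30 and 0.29 with all 3 experiments.

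How the level of an mRNA went with base composition differed between libraries. Coding GC content ran from 44.2% (Rpl39) to 61.3% (Rpl36) over the 46, with a median of 52.5%. In each library the trend of log2 CPM on coding GC content was read over all genes with a known value, 95.7% of the table, as its height at 45% and at 60% GC. It was -0.33 and 0.45 in LPS polysome library 2, against -0.07 and 0.06 in library 1 and -0.07 and -0.05 in library 3, and -0.35 and 0.55 in torin1 polysome library 2, against -0.04 and -0.08 in library 1 and 0.02 and -0.09 in library 3. The control polysome libraries 1, 2 and 3 had -0.55 and 0.57, -0.19 and 0.16, and -0.27 and 0.38. LPS total library 1 stood apart from the other total libraries with 0.41 and -0.56.

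Spearman's rho across the 46 core genes between coding GC content and the change in translation efficiency with torin1 against LPS was -0.77, 0.41 and -0.49 in experiments 1, 2 and 3, and for the polysome change with LPS against control it was -0.71, 0.72 and -0.59. These are descriptions, among 84 such correlations computed after the data were seen, and genes of the same libraries are not independent replicates. With the trend removed from each library, the median change in translation efficiency with torin1 was -0.55 ± 0.13, with -0.60, -0.40 and -0.66 in experiments 1, 2 and 3, and 42 of 46 genes were lower in all 3, against 16.4% of all genes. The part of base composition in the values of single genes was not tested, and for Rplp1, Rplp2 and Rpl36 experiment 2 still differed from the others with the trend removed.

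**Figure D4:**
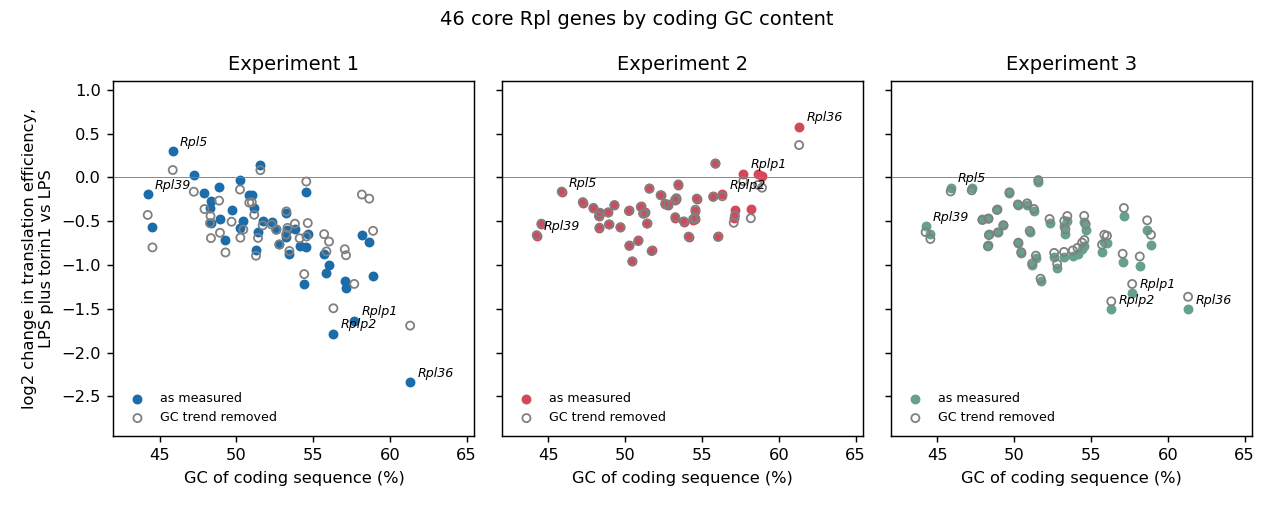
Change in translation efficiency (log2) with LPS and torin1 against LPS in each experiment, 1 panel per experiment, against the coding GC content (percent) of each of the 46 core genes, filled as measured and open with the GC trend of each library removed. The filled points slope down in experiments 1 and 3 and up in experiment 2, and the open points lie mostly below 0 in all 3.

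The comparison of LPS with torin1 against control asks where the inhibited cells stood relative to resting ones, and it shares its libraries with the comparisons above. Polysome mRNA of the large subunit genes had a median change of -0.22 ± 0.22, with -0.03, -0.17 and -0.46 in experiments 1, 2 and 3, and total mRNA one of 0.18 ± 0.04. Scaled to library totals alone, where the fitted median of all genes was -0.31 in polysome and -0.30 in total mRNA, the core medians were -0.51 and -0.11. Rpl3 and Rpl5 were called in the other direction, with polysome changes of 0.24 ± 0.14 (adjusted p 0.214) and 0.29 ± 0.18 (0.232), higher in 3 of 3 experiments for Rpl3 and in 2 of 3 for Rpl5, but neither was called higher with library totals alone. Nor was either called higher with only the compared treatments in the fit, without replicate 1 or without replicate 3. These fits called 56.7%, 40.4% and 37% of all genes in either direction. Rpl7, at 0.27 ± 0.20, did not pass.

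The lowest polysome values were those of Rpl36 at -0.91 ± 0.63, not past the test, Rplp2 at -0.81 ± 0.43 (adjusted p 0.175) and Rplp1 at -0.78 ± 0.48 (0.231). Rpl36 fell with experiments as a block, at -1.46 (adjusted p 0.0617), without replicate 2, at -2.31, and with the GC trend removed, at -0.78. In experiment 2 the values of all 3 genes were positive, with -2.14, 0.73 and -2.52 for Rpl36, -1.55, 0.51 and -1.85 for Rplp2 and -1.59, 0.47 and -1.88 for Rplp1 in experiments 1, 2 and 3. Rpl21 fell by 0.55 ± 0.18 (0.034), lower in 3 of 3 experiments. In total mRNA Rpl21 was the single core gene that fell, at -0.26 ± 0.14 (0.148), and Rpl36 at 0.01 and Rpl35a at 0.01 came next without passing. The highest were Rplp0, at 0.42 ± 0.15 (0.0454), Rplp2, at 0.41 ± 0.25 (0.207), and Rpl23, at 0.38 ± 0.13 (0.0316), which rose when scaled to the typical gene, each higher in 3 of 3 experiments, as Rpl21 was lower in 3 of 3.

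By edgeR, 16 of the 46 fell and 2 rose in polysome mRNA, against 29.7% of all genes that fell, and 20 rose and 1 fell in total mRNA, against 33.1% of all genes that rose. With library totals alone 34 fell and 0 rose in polysome mRNA, against 48.3% of all genes that fell, and 15 fell and 0 rose in total mRNA, against 55%. In polysome mRNA 6 fell without replicate 1, against 19.4% of all genes, 20 fell and 6 rose without replicate 2, against 34.7% and 33.1%, and 0 were called without replicate 3, against 37% of all genes in either direction. In total mRNA 12 rose and 0 fell without replicate 3, against 27.5% of all genes that rose. With the block and the GC trend removed, 32 fell and 1 rose in polysome mRNA, against 39.8% of all genes that fell, and Rpl5 was no longer called.

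Translation efficiency between these treatments had a median of -0.39 ± 0.15, with -0.22, -0.46 and -0.50 in experiments 1, 2 and 3, and was lower in all 3 experiments for 33 of 46 genes, against 14.3% of all genes. The lowest were Rplp2 at -1.25 ± 0.55, Rplp1 at -1.05 ± 0.59 and Rpl36 at -0.96 ± 0.84, and the highest Rpl7 at 0.20 ± 0.27, Rpl5 at 0.15 ± 0.24 and Rpl24 at -0.06 ± 0.28. By edgeR 0 core genes were called, as by DESeq2, with lysates as a block and in the analysis of partial variance, and 18 were lower at an unadjusted p under 0.05, against 1.09% of all genes. In the fits with 0 core genes, 0%, 0.00889%, 0.0267% and 0.0623% of all genes were called in either direction, in the same order. Without replicate 2, 12 fell, against 3.62% of all genes, and with the block and the GC trend removed 14 fell, against 0.374%, but with the trend removed and no block 0 were called, as were 0% of all genes.

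The comparison of polysome with total mRNA within a treatment asks which mRNAs sat on heavy polysomes more than the typical gene did. In control cells most large subunit mRNAs did, with a median log2 ratio of 0.42 ± 0.07, and with LPS likewise, with 0.54 ± 0.06. With torin1 the median was -0.01 ± 0.11. Rpl37 had 196, 217 and 191 CPM in control total mRNA and 393, 582 and 428 CPM in control polysomes, and with LPS 243, 288 and 235 and 706, 608 and 492 CPM. Its polysome values lay above its total values in every experiment, and the log2 ratio was 1.22 ± 0.20 in control cells (adjusted p 0.000225) and 1.24 ± 0.20 with LPS (0.000189). Rpl36, at 1.49 ± 0.60, and Rplp2, at 1.17 ± 0.39, were also among the highest in control cells. The tunnel protein Rpl4, at -0.28 ± 0.13 (0.0798), and Rpl5, at -0.30 ± 0.17 (0.14), were lower in polysomes of control cells, although with the block and the GC trend removed they stood at -0.09 and 0.15 and were not called.

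With torin1 members were called in both directions, with log2 ratios from -0.64 to 0.55. This range was no wider than that in control cells, -0.30 to 1.49, or with LPS, -0.21 to 1.24. Higher in polysomes than in total mRNA were Rpl38 at 0.55, Rpl37 at 0.41, Rpl7 at 0.36, Rpl35a at 0.36, Rpl9 at 0.33, Rpl11 at 0.31 and Rpl37a at 0.30. Lower were Rpl12 at -0.64 ± 0.14 (adjusted p 0.00247), Rpl14 at -0.58 ± 0.12 (0.00159), Rpl23 at -0.56, Rpl21 at -0.54, Rpl13 at -0.50 and Rpl4 at -0.45. Rpl12 counted 488, 548 and 448 CPM in total mRNA and 326, 358 and 269.5 CPM in polysomes with torin1, with no overlap, and Rpl12 and Rpl14 were lower in 3 of 3 experiments.

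By edgeR with a fold of at least 1.2, 31 of 46 were higher and 2 lower in control polysomes, against 34.3% of all genes that were higher, and 33 were higher and 0 lower with LPS, against 32.3%. With torin1 7 were higher, against 26.1% of all genes, and 6 lower, against 26.3%. At an FDR of 0.05, 0 were higher and 6 lower with torin1, against 30.9% of all genes in either direction. The count with torin1, 13 over both directions, was 8 without replicate 1 (2 higher and 6 lower), against 45.2% of all genes, 19 without replicate 2 (5 and 14), against 42.5%, and 9 without replicate 3 (3 and 6), against 46.5%. With the GC trend removed it was 21 with or without the block, against 52.7% and 46.3%. Whether these counts differ between treatments was not tested.

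The 4 paralogs were apart from the core genes in part. Rpl7l1, whose protein is a nucleolar relative of Rpl7, counted 308, 244 and 256 CPM in LPS total mRNA and 194, 175 and 163 CPM with torin1, and 301, 225 and 294 and 215, 143 and 176 CPM in polysomes. Neither pair of groups overlapped. With torin1 it fell by 0.60 ± 0.12 in total mRNA (adjusted p 0.0057) and fell by 0.59 ± 0.17 in polysomes (0.0464), so that its translation efficiency stood at -0.01 ± 0.22. Against control its total mRNA fell by 0.29 (0.0776).

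Rpl22l1, the paralog of the RNA-binding protein Rpl22, counted 69.5, 57.4 and 52.5 CPM in LPS polysomes and 34.2, 30.9 and 30.2 CPM with torin1, and 52.7, 41.6 and 35.4 and 35.4, 37.8 and 30.5 CPM in total mRNA. The polysome groups were far apart and the total groups overlapped. It fell by 0.89 ± 0.17 in polysomes (adjusted p 0.0091) and fell by 0.32 ± 0.16 in total mRNA (0.157), with a translation efficiency of -0.59 ± 0.24 that was not called by edgeR, DESeq2 or with the block, but was with the block and the GC trend removed, at -0.70. Rpl36al, the relative of Rpl36a, fell by 0.60 in polysomes (0.0629) and fell by 0.41 in total mRNA (0.0696). These 3 paralogs were lower with torin1 than with LPS in 3 of 3 experiments in both kinds of mRNA. Rpl3l, the muscle form of Rpl3, had 6 to 41 counts per library, so its changes rest on few reads. With LPS against control and scaled to the typical gene, all 4 rose in total mRNA, against 32.2% of all genes. Rpl22l1, by 0.69, Rpl7l1, by 0.41, and Rpl36al, by 0.39, rose in polysomes, against 26.4% of all genes.

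Other gene lists were read beside the core genes for the torin1 comparison, in which 18.2% of all genes fell and 20.3% rose in polysome mRNA, and 26.4% fell and 27.3% rose in total mRNA. The 31 Rps genes, of the small subunit, had a median change in translation efficiency of -0.67 ± 0.19, 28 of them lower in all 3 experiments, against 17.2% of all genes, from Rps14 at -1.01 ± 0.24 to Rpsa at -0.27, and 27 fell in polysome mRNA and 3 in total mRNA. The 47 Mrpl genes, of the mitochondrial large subunit, had a median of -0.09 ± 0.04 in translation efficiency, from Mrpl14 at -0.64 ± 0.38 to Mrpl42 at 0.25, and 23 fell in polysome mRNA and 30 in total mRNA. The 31 assembly factors of the large subunit had 0.10 ± 0.16, from Grwd1 at -0.23 to Gtpbp4 at 0.32, and 16 fell in polysome mRNA and 23 in total mRNA, most of all Znhit3, at -1.04 ± 0.13 in total mRNA (adjusted p 0.000557). The 20 other mRNAs with a TOP motif had -0.05 ± 0.12, from Tpt1 at -0.64 to the elongation factor Eef2 at 0.24. In total mRNA 6 of them fell and 3 rose, and in polysome mRNA 7 fell and 2 rose, with polysome changes from -0.71 for Fau, which encodes a small subunit protein, to 0.83 ± 0.30 for Eef2 (0.0959). With lysates as a block, translation efficiency fell for 10 Rps genes, for 1 other TOP mRNA, Tpt1, and for 0 Mrpl genes, against 0.222% of all genes. Whether these lists differ from the core genes was not tested.

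**Figure D5:**
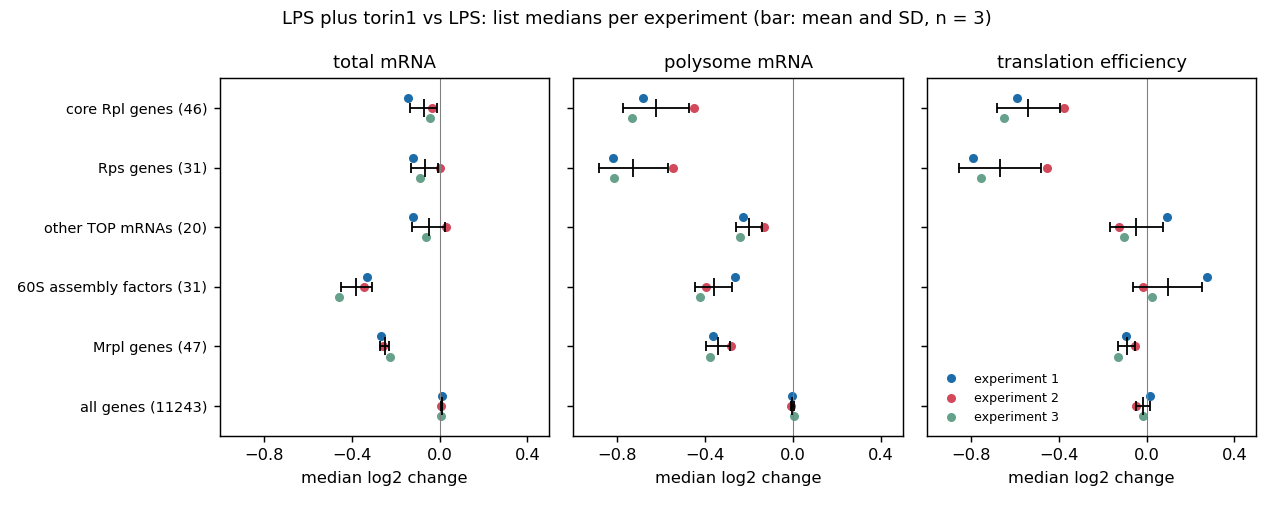
Median log2 change of the core Rpl genes and of other gene lists with LPS and torin1 against LPS in total mRNA, polysome mRNA and translation efficiency, with points for the 3 experiments and bars for the mean and SD. The core Rpl and Rps medians lie near 0 in total mRNA and below 0 in the other panels, whereas the Mrpl and assembly factor medians are below 0 in total and in polysome mRNA.

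With LPS against control and scaled to the typical gene, 24 Rps genes rose and 0 fell in total mRNA, 17 Mrpl genes rose and 16 fell, 13 other TOP mRNAs rose and 1 fell, and 23 assembly factors rose and 1 fell, against 32.2% of all genes that rose and 34.3% that fell. In polysome mRNA 19 Rps genes rose and 0 fell, 10 Mrpl genes rose and 12 fell, 11 other TOP mRNAs rose and 0 fell, and 11 assembly factors rose and 1 fell, against 26.4% and 28.7% of all genes. These lists were not counted with library totals alone. In polysome against total mRNA, the Rps genes had median log2 ratios of 0.47 in control and 0.51 in LPS cells. The Mrpl genes had 0.48 and 0.47, and the core genes 0.42 and 0.54. The other TOP mRNAs had -0.11 and -0.12, and the assembly factors -0.24 and -0.40. Differences between the lists in this ratio were not tested.

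Among properties that the choice by symbol did not use, coding length went furthest with the polysome change of torin1 against LPS. Coding length ran from 78 to 1260 bases with a median of 478.5. With torin1 against LPS, Spearman's rho between coding length and the change across the 46 genes was 0.70 in polysome mRNA and 0.58 in translation efficiency, so the long members, such as Rpl3, Rpl4 and Rpl5, had the values nearest 0. The 14 genes of 600 bases or more had a median polysome change of -0.43 ± 0.24, the 17 genes of at least 400 but under 600 bases one of -0.67 ± 0.14 and the 15 shorter genes one of -0.78 ± 0.19 (SD, n = 3), limits chosen after the data were seen. In experiments 1, 2 and 3 the medians were -0.61, -0.15 and -0.53 for the longest, -0.67, -0.53 and -0.81 for the middle and -0.91, -0.56 and -0.87 for the shortest genes. Coding length also went with the ratio of polysome to total mRNA, at a rho of -0.54 in control cells, -0.61 with LPS and -0.35 with torin1. The number of copies had rho from -0.46 to 0.34 over the 12 comparisons, the level per kb from -0.13 to 0.28 and coding GC content from -0.75 to 0.38. With torin1 against control, rho was -0.64 in polysome mRNA and -0.75 in translation efficiency for coding GC content, and 0.37 and 0.26 for coding length. For coding GC content the sign differed in experiment 2, with -0.88, 0.54 and -0.77 in polysome mRNA and -0.89, 0.20 and -0.76 in translation efficiency in experiments 1, 2 and 3. The 14 genes with 3 or fewer copies had a median change in translation efficiency with torin1 of -0.63 ± 0.33 and the 32 others one of -0.52 ± 0.12.

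Since the TOP motif lies at the start of the transcript, the bases around the annotated starts are shown for members at both ends of the range. RefSeq promoter sequences of build GRCm38.p6 matched 34 of the 46 core genes. Among the missing were Rpl7, Rpl8, Rpl3, Rpl36, Rpl17, Rpl21, Rpl32, Rplp1 and Rpl29. The motif searched was a run of 8 or more C or T in any order, on the strand of the gene, with at least 1 base within 10 bases of an annotated start. It was found for 17 of 34 core genes (50%), 10 of 23 Rps genes (43.5%), 1444 of 8568 genes of the count table (16.9%) and 4259 of 27025 genes with a promoter sequence (15.8%). The windows hold 15 bases on each side of the start, and capitals mark the part of such a run that lies inside the window. They are chr7:141447636-141447665 for Rplp2, chr7:4792950-4792979 for Rpl28, chr11:68901551-68901580 for Rpl26, chr15:5116598-5116627 for Rpl37, chr9:64173372-64173401 for Rpl4, chr5:107900513-107900542 for Rpl5 and chr3:28805493-28805522 for Rpl22l1, all on the plus strand, and chr17:46782642-46782671 on the minus strand for Rpl7l1.
Rplp2: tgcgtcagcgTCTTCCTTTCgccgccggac
Rpl28: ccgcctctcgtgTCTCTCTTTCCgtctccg
Rpl26: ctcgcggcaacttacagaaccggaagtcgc
Rpl37: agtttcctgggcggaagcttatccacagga
Rpl4: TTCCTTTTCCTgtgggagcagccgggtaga
Rpl5: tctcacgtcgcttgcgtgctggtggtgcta
Rpl22l1: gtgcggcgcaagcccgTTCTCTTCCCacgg
Rpl7l1: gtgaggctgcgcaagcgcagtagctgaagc

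The runs of Rplp2, Rpl28, Rpl4 and Rpl22l1 were 10, 11, 14 and 10 bases long, and the longest of the core genes, in Rpl7a, was 21. Rpl26, Rpl37 and Rpl5 had none of 8 or more at the annotated start. The 17 core genes with a run had a median polysome change with torin1 of -0.71 ± 0.22 and the 17 without one -0.55 ± 0.11, and their medians in translation efficiency were -0.59 ± 0.20 and -0.52 ± 0.09. In experiments 1, 2 and 3 the medians with and without a run were -0.86, -0.46 and -0.81 against -0.67, -0.45 and -0.52 in polysome mRNA, and -0.65, -0.36 and -0.75 against -0.49, -0.44 and -0.62 in translation efficiency. An annotated start need not be the start used in these cells, and a match is a description of letters and not of a site in use.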

How the data were processed

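The authors deposited raw counts per gene and library, which were used as they stand, with genes at 0 in any library already removed. The strand setting of the counting is not given. Exons of some core genes overlap a gene on the other strand, such as Rpl12 with Lrsam1 and Rpl28 with Ube2s. Whether their counts hold reads of that gene was not tested. The submitters' notes name GRCm38. Members and gene lists were chosen with earlier results of these data known. R 4.3.3, edgeR 4.0.16 (TMM scaling, quasi-likelihood test, Benjamini-Hochberg adjustment over all 11243 genes), DESeq2 1.42.0 and limma 3.58.1 were used, at an FDR of 0.25 and, for translation efficiency and for polysome against total mRNA, a fold of at least 1.2. The study's tool, anota2seq, was not installed. Total and polysome libraries were fitted apart. Translation efficiency was the interaction of RNA type and treatment over 18 libraries, in the main fit without a term for the lysate.

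Named by rule were the stalk, 5S rRNA, late-joining and tunnel-exit genes, every paralog, the 3 core genes at each end of each change and of the level per kb, members called against the majority and the ends of the other lists, of which most are described. Further names, such as Rpl26, were chosen after values were seen.

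The pairing comes from the design, with matched mRNA of 1 lysate and independent experiments. Correlations of residuals between total and polysome mRNA of a lysate were 0.39 to 0.65, and -0.49 to 0.01 between different experiments of a treatment. Between treatments, libraries of 1 experiment correlated at 0.15 to 0.42 in total and -0.09 to 0.74 in polysome mRNA, and those of different experiments at -0.30 to 0.05 and -0.56 to 0.26. Pairing was an alternative, as were other scalings, tests, filters, thresholds and models and each replicate left out; the GC trend, the limit on copies, the groups by length or run and the correlations were added after seeing the data. The edgeR, DESeq2 and partial variance tests were run on simulated counts with known changed genes, without a lysate effect or GC trend. The other steps were not.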

Additional observations from a re-analysis of the deposited data

How the results depend on the processing

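Directions of the core medians in polysome mRNA with torin1 against LPS and in translation efficiency with torin1 against LPS held under every scaling tried, without each replicate and with 3 or fewer copies, and so did the medians of polysome against total mRNA in control and LPS cells. Without each replicate, core genes called in total mRNA with LPS against control numbered 24 to 30 (55.5% to 62.8% of all genes). Without replicate 2, 27 rose and 3 fell. Polysome against total mRNA had 27 to 30 in control (54.2% to 66.8%) and 27 to 32 in LPS cells (48.5% to 58.4%). Translation efficiency with LPS against control and with torin1 against LPS had 0 by edgeR each time (0%). Unadjusted counts and other tools are in the report.

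Leaving out replicates, total mRNA had 1 to 9 called with torin1 against LPS (35.2% to 47.9% of all genes). With torin1 against control it had 12 to 16 (55.4% to 62.3%). Polysome mRNA had 1 to 36 with LPS against control (34.7% to 64.5%) and 8 to 43 with torin1 against LPS (10.6% to 46.1%). With torin1 against control it had 0 to 26 (37% to 67.8%). Translation efficiency with torin1 against control had 0 to 12 (0% to 3.82%). Polysome against total mRNA with torin1 had 8 to 19 (42.5% to 46.5%). Without replicate 2, the counts 9, 36, 26 and 19 held 4, 33, 6 and 5 higher and 5, 3, 20 and 14 lower genes. Several genes changed direction without replicate 2, at one end of each range. In total mRNA with LPS against control, Rplp0 ran from -0.011 to 0.44, Rplp1 from -0.28 to 0.68, Rplp2 from -0.26 to 0.63 and Rpl36 from -0.73 to 0.88. In total mRNA with torin1 against LPS, Rplp1 ran from -0.25 to 0.34 and Rpl36 from -0.61 to 0.49. There Rplp2 turned to -0.11 without replicate 1. In polysome mRNA with LPS against control Rplp1 ran from -0.59 to 0.31 and Rplp2 from -0.55 to 0.30. Fewer libraries were then fitted, and the cause of these changes was not tested.

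Shares in brackets are of all genes, called in either direction by the same fit. With library totals alone the counts were 6 in total mRNA with LPS against control (77.3%), 2 in total mRNA with torin1 against LPS (52.7%), 2 in polysome mRNA with LPS against control (68%) and 34 in polysome mRNA with torin1 against control (66.1%). The medians were then -0.10 in total mRNA with LPS against control, -0.0040 with torin1 against LPS and -0.11 with torin1 against control, and -0.00023 in polysome mRNA with LPS against control and -0.51 with torin1 against control. The median of all genes under this scaling is in the report, and the cause was not tested.

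The stricter FDR of 0.05 gave fewer genes by construction: 9 (45.6%), 0 (29.2%) and 5 (47.5%) in total mRNA with LPS against control, torin1 against LPS and torin1 against control, 6 (32.5%), 20 (13.8%) and 1 (35.1%) in polysome mRNA in the same order, and 6 (30.9%) in polysome against total mRNA with torin1. With the replicate block, 12 were called in total mRNA (64%) and 10 in translation efficiency (0.222%) with torin1 against LPS. The block also gave 40 (73.1%) and 34 (62.8%) in total and polysome mRNA with LPS against control, 42 (49.7%) in polysome mRNA with torin1 against LPS, and 27 (73.5%) and 26 (66.3%) in total and polysome mRNA with torin1 against control. With the block and the GC trend removed there were 17 in total mRNA (68.5%) and 23 in translation efficiency (0.463%) with torin1 against LPS, 33 in polysome mRNA (74.6%) and 14 in translation efficiency (0.391%) with torin1 against control, and 21 in polysome against total mRNA with torin1 (52.7%). With the GC trend removed and no block there were 21 in polysome against total mRNA with torin1 (46.3%) and 0 in translation efficiency, and the unadjusted counts with the trend kept are in the report. The analysis of partial variance called 1 in translation efficiency with torin1 against LPS (0.178%). One model over 18 libraries called 4 in total mRNA with torin1 against LPS (44.5%), 12 in total mRNA with torin1 against control (60.7%) and 29 in polysome mRNA with torin1 against control (65%). With 3 or fewer copies, which leaves 14 genes, the medians were 0.018 in total mRNA with torin1 against LPS, 0.22 in total mRNA with torin1 against control, -0.63 in translation efficiency with torin1 against control and -0.19 in polysome against total mRNA with torin1. Apart from the stricter threshold and the smaller list, the cause was not tested. Of 297 values of single named genes, 288 kept direction and side of the threshold by DESeq2 and 268 with the replicate block. Without replicates 1, 2 and 3 it was 208, 223 and 222. More values changed direction than those given above.

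Depth limits Rpl3l, with 6 to 41 counts per library, and Rpl29, with at least 95. Reads that fit several near-identical copies cannot be placed by the counts, 3 experiments leave wide errors on translation efficiency, and proteins were not measured. Every alternative named was run.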
